A study of Triticum aestivum with 8 samples.

Results

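Accessible chromatin regions (ACRs) of wheat seed at DAP15 were set against those of wheat endosperm at DAP5, where DAP counts days after pollination. The seed samples were labelled Seed and taken 15 days after fertilization, and the endosperm samples were labelled Endosperm and taken 5 days after fertilization. Both came from untreated plants of the cultivar AiKang58 (AK58), grown in the same day and night cycle. The endosperm was what remained of the young grain once the embryo had been removed, so that other grain tissues may have been included, whereas the embryo was not removed from the seed. Stage and tissue therefore cannot be told apart in any difference below. Each stage had 2 sample records but 1 list of ACRs was used for each, so the spread between replicates is not known here and none of the differences could be tested against it.

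The members were all loci formed by the 2 lists, outside chromosome 4B. The 102128 ACRs of the DAP15 list and the 104538 ACRs of the DAP5 list, of 420451 ACRs in the 4 lists of the series with chromosome 4B included, were joined wherever they overlapped by at least 1 bp. This gave 142192 loci on 20 chromosomes, and a locus was called DAP15 alone, DAP5 alone or kept (an ACR of both lists). Chromosome 4B, where 28.6% of the loci were in both lists, was left out of all other values unless it is named. The lists held coordinates without read numbers, so sequencing depth is unknown here and a locus missing from a list was not shown to be closed. The genome build of the coordinates was not given in the sources used here, and no gene annotation or genome sequence was used.

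In ATAC-seq, the Tn5 transposase cuts DNA that is not wrapped in nucleosomes, and clusters of cuts mark promoters, enhancers and other sites where transcription factors can bind. Early wheat endosperm divides and forms cell walls, while later endosperm fills with starch and with gluten storage proteins. Bread wheat combines the subgenomes A, B and D, each with chromosomes of 7 homoeologous groups, and its genes lie most densely towards the chromosome ends.

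With an overlap of 1 bp counted as shared, kept loci formed the largest set, followed by loci of DAP5 alone and loci of DAP15 alone. Of the loci in either list, 39532 belonged to DAP15 alone (27.8%, Wilson 95% interval 27.6 to 28.0%), 43998 to DAP5 alone (30.9%, 30.7 to 31.2%) and 58662 to both lists (41.3%, 41.0 to 41.5%). The intervals cover counting error only, and neighbouring loci are not independent. Kept loci were the largest set on 20 of 20 chromosomes. Loci of DAP5 alone outnumbered those of DAP15 alone on 16 chromosomes, the exceptions being 2D, 4A, 4D and 7B. Chromosome 7B had the highest share of DAP15 alone (2198 loci, 32.2%, against 1966 loci of DAP5 alone, 28.8%) and the lowest share of kept loci (39.0%). Chromosome 6B lay at the other end, with 25.2% of DAP15 alone against 32.4% of DAP5 alone. The highest share of DAP5 alone was on 7A (34.0%, against 26.5% of DAP15 alone), and the highest share of kept loci on 6A (43.2%). This rank changed with the overlap that was required. With an overlap of 50% of both ACRs, kept loci were the smallest set (25.9%), with 36.3% for DAP15 alone and 37.8% for DAP5 alone, and with each ACR set to 350 bp about its midpoint, DAP5 alone (34.1%) exceeded kept loci (33.4%). The margin between the sets of a single list moved with the minimum width, at 29.7% for DAP15 alone and 29.6% for DAP5 alone from 350 bp, and 26.4% for DAP15 alone and 34.8% for DAP5 alone from 500 bp.

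**Figure D1:**
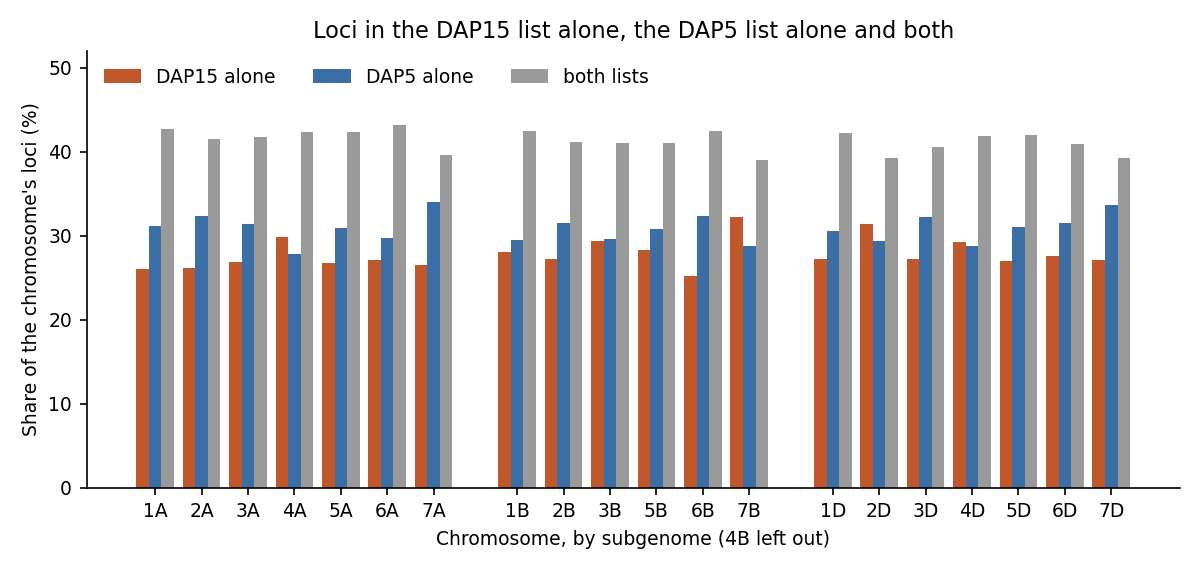
Share of each chromosome's loci (%, vertical axis) found in the DAP15 list alone, the DAP5 list alone and both lists, for 20 chromosomes grouped by subgenome. The grey bars of kept loci are the highest on each chromosome, and DAP15 alone exceeds DAP5 alone on 2D, 4A, 4D and 7B.

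Loci found in a single list were narrow, and those of DAP15 alone were the narrowest. ACRs of DAP15 alone were 488 ± 240 bp wide (mean ± SD over 39532 ACRs) with a median of 350 bp, and ACRs of DAP5 alone were 573.6 ± 327 bp wide (43998 ACRs) with a median of 500 bp. DAP15 alone had the smaller mean on 20 of 20 chromosomes. Across chromosomes, the mean ran between 471 bp (7D) and 503 bp (4D) for DAP15 alone and between 553 bp (6A) and 596 bp (3D) for DAP5 alone, so that the ranges did not overlap. ACRs in kept loci were 777 ± 563 bp wide in the DAP15 list and 888 ± 701 bp wide in the DAP5 list. The DAP15 list covered 19.3 Mb in its own loci and 48.7 Mb in kept loci, and the DAP5 list covered 25.2 Mb and 53.8 Mb. ACRs of at least 1000 bp made up 3.55% of DAP15 alone and 8.18% of DAP5 alone.

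The lists themselves differed in how their widths were spaced, and this moves with each width comparison. No ACR of the DAP15 list was narrower than 350 bp, while 4.56% of the DAP5 list was, down to 223 bp. A width of exactly 350 bp was found for 38.6% of the DAP15 list and 25.4% of the DAP5 list. Widths other than 350 bp plus a multiple of 150 bp made up 4.33% of the DAP15 list and 18.2% of the DAP5 list. The part of these list properties in the width differences was not tested.

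The wider an ACR was, the more often it had a counterpart in the other list. Of ACRs exactly 350 bp wide, 43.4% of the DAP15 list (42.9 to 43.9%) and 41.3% of the DAP5 list (40.7 to 41.8%) lay in kept loci. Of ACRs over 2000 bp, it was 96.4% of 2133 at DAP15 (95.5 to 97.1%) and 92.7% of 3731 at DAP5 (91.8 to 93.5%). DAP15 ACRs were kept more often than DAP5 ACRs in each width class from 350 bp up. A wide ACR can meet the other list at more positions than a narrow one, which holds for both lists. The lists also differed in the length they covered, with 79.0 Mb for DAP5 and 67.9 Mb for DAP15. DAP15 ACRs were thus set against the larger target, and the part of this in the shares kept was not tested.

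**Figure D2:**
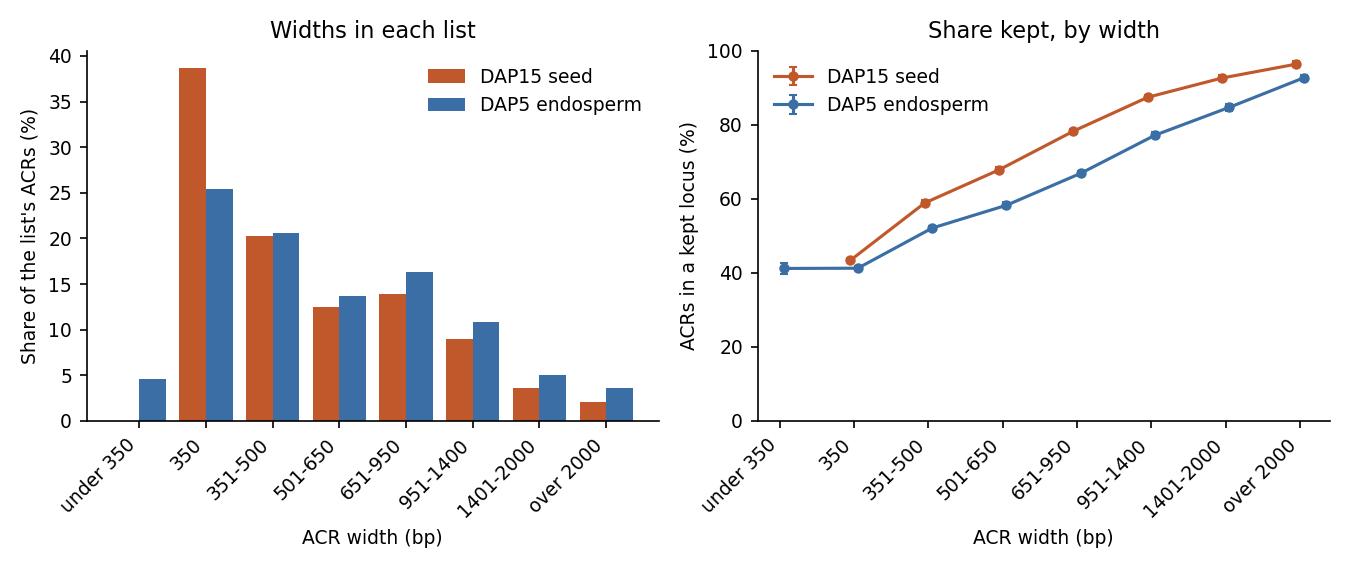
Left, share of the ACRs of each list (%) by width class in bp. Right, share of the ACRs of each class that lay in a kept locus (%), with Wilson 95% intervals. The DAP15 list has its peak at 350 bp (38.6%) and no ACR below it, and the share kept is between 41.2% and 43.4% at 350 bp or less and at least 92.7% for ACRs over 2000 bp.

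Wide loci of a single list were few. The widest locus of DAP15 alone spanned 6061 bp on 7B (138879597 to 138885657), at 18.5% of the chromosome's length. The widest of DAP15 alone on the D subgenome spanned 4746 bp on 1D (257409 to 262154), and the widest on A spanned 3800 bp on 2A (610650725 to 610654524). These 3 loci had another locus within 640 bp. For DAP5 alone, the widest spanned 4806 bp on 1B (533322494 to 533327299), 78041 bp from any other locus. The widest of DAP5 alone on D spanned 4646 bp on 2D (32650 to 37295), close to the chromosome end, and that on A spanned 4532 bp on 5A (554070783 to 554075314).

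Loci of DAP15 alone lay farther from the chromosome ends than loci of DAP5 alone. The outer 20% at either side, together 40% of the length, held 57.1% of DAP15 alone (56.6 to 57.6%), 63.6% of DAP5 alone (63.1 to 64.0%) and 60.1% of kept loci (59.7 to 60.5%). DAP15 alone lay below DAP5 alone on 20 of 20 chromosomes, by between -15.4 percentage points (1B) and -1.17 points (5A), with a mean difference of -6.57 ± 3.26 points (SD, n = 20 chromosomes). The end share of 1B had few loci from its start, with only 7 in the first 5%. Kept loci lay between them on the whole, with DAP15 alone below kept loci on 17 of 20 chromosomes and DAP5 alone above kept loci on 17 of 20.

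Of the 20 bins of relative position, the last had the widest margin. In the last 5% of the coordinates, 20.8% of 19130 loci were DAP15 alone, 37.1% were DAP5 alone and 42.1% were kept, against 27.8% and 30.9% for the sets of a single list over all loci. DAP5 alone exceeded DAP15 alone there on 20 of 20 chromosomes, from 33.3% against 22.7% for DAP15 alone on 6A to 41.5% against 18.2% for DAP15 alone on 5B. In the first 5%, DAP15 alone held 25.9% and DAP5 alone 34.3% of 13818 loci, and the direction held on 14 of 20 chromosomes. The exceptions were 1A, 1D, 4A, 5A, 5B and 7B, and on 5A DAP15 alone held 40.4% against 25.2% for DAP5 alone. Chromosome 1B, counted among the 14, had only 7 loci in this bin, 0 of DAP15 alone and 5 of DAP5 alone. Between 5% and 40% of the length, DAP15 alone was the larger set of a single list in each of the 7 bins, with a share between 28.7% and 32.8%. In the middle of the chromosomes, from 20% to 80% of the length, the share of DAP15 alone minus that of DAP5 alone was 1.68 points, less than its spread over chromosomes, and with a minimum width of 500 bp it was -3.53 points.

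**Figure D3:**
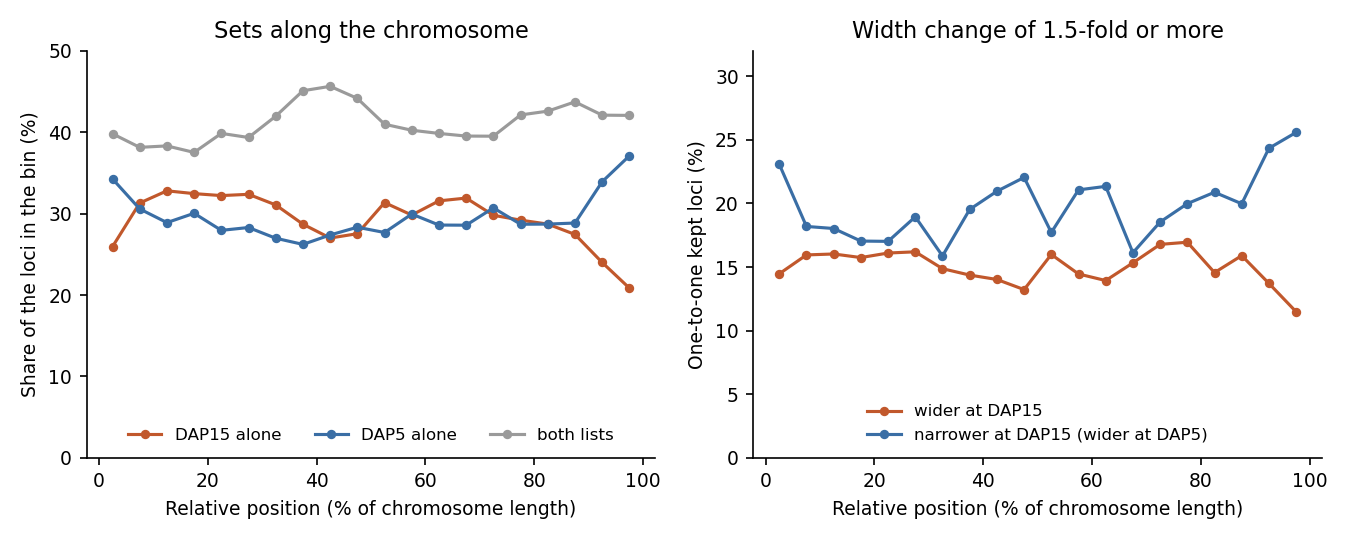
Both panels run along the relative chromosome position (% of the largest end coordinate) in 20 bins over 20 chromosomes. Left, share of the loci of each bin in DAP15 alone, DAP5 alone and both lists (%); DAP5 alone reaches 37.1% and DAP15 alone falls to 20.8% in the last bin. Right, share of one-to-one kept loci that were wider or narrower at DAP15 by at least 1.5-fold (%); 25.6% are narrower and 11.5% wider in the last bin.

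By distance to the nearest end, with both ends pooled, DAP5 alone exceeded DAP15 alone to at least 50 Mb inward. This did not hold for both ends alike. From 5 to 10% of the length, 31.3% of loci were DAP15 alone and 30.6% were DAP5 alone. In the outer 2 Mb, 25.1% of loci were DAP15 alone and 32.2% were DAP5 alone, with more of DAP5 alone on 16 of 20 chromosomes. The margin was larger between 2 and 5 Mb from the nearest end, where 22.1% of loci were DAP15 alone and 36.7% were DAP5 alone. Between 20 and 50 Mb, the shares were still 25.1% for DAP15 alone and 34.4% for DAP5 alone, with more loci of DAP5 alone on 19 of 20 chromosomes. Between 100 and 200 Mb, DAP15 alone had 29.9% and DAP5 alone 29.0%, and DAP15 alone was the larger on 12 of 20 chromosomes. The share of kept loci changed little over these zones, between 40.5% and 42.7%. By relative position it varied more, from 37.5% between 15 and 20% of the length to 45.6% between 40 and 45%. Locus density was 33.2 loci per Mb in the outer 2 Mb and 6.32 loci per Mb beyond 200 Mb.

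Windows of 10 Mb with at least 50 loci showed the regional extremes. Of 1088 such windows, 474 had more loci of DAP15 alone and 576 more of DAP5 alone, and the median difference was -1.59 points. A difference of 20 points or more was found towards DAP15 alone in 59 windows and towards DAP5 alone in 73. Chromosome 7B had the most windows tilted to DAP15 alone (9), and 7A the most tilted to DAP5 alone (10), followed by 7D (9). The window most tilted to DAP15 alone lay on 4A (120000001 to 130000000), with 26 loci of DAP15 alone and 6 of DAP5 alone among 51. Next were 1B from 370000001 to 380000000, with 26 loci of DAP15 alone and 6 of DAP5 alone, and 7B from 460000001 to 470000000, with 32 loci of DAP15 alone and 8 of DAP5 alone. The window most tilted to DAP5 alone lay on 5D (230000001 to 240000000), with 13 loci of DAP15 alone and 54 of DAP5 alone among 106. Next were the first 10 Mb of 3A, with 15 loci of DAP15 alone and 54 of DAP5 alone, and 7A from 370000001 to 380000000, with 6 loci of DAP15 alone and 29 of DAP5 alone. The windows on 5D and 7A lay over 200 Mb from both chromosome ends.

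Turnover between the lists was similar in the 3 subgenomes. With an overlap of 1 bp, the kept share was highest on A in each homoeologous group, and this was not recalculated with other settings. Kept loci made up 41.9 ± 1.19% of the loci on A chromosomes, 41.2 ± 1.28% on B and 40.9 ± 1.23% on D (mean ± SD, n = 7, 6 and 7 chromosomes). The D share was below the A share in 7 of 7 homoeologous groups, by -1.06 ± 0.871 points, and the B share was below the A share in 6 of 6 groups, by -0.68 ± 0.391 points. DAP15 alone held 28.1 ± 1.64% on D, 28.4 ± 2.33% on B and 27.02 ± 1.29% on A. D exceeded A in DAP15 alone in 6 of 7 groups, by 1.09 ± 1.89 points, which is smaller than its spread over groups, and with a minimum width of 500 bp the difference was -0.0931 points. D and B differed by -0.48 ± 3.29 points over 6 groups, D being lower in 4. For DAP5 alone, D minus A was -0.0291 ± 1.54 points, with D higher in 4 of 7 groups.

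Per Mb, D chromosomes carried more loci of each set, but they were also shorter than A chromosomes in each group. Counts per chromosome were closer, at 2050 ± 295 loci of DAP15 alone on D and 1874 ± 269 on A. For DAP5 alone they were 2266 ± 339 on D and 2163 ± 392 on A. DAP15 alone had 3.63 ± 0.218 loci per Mb on D and 2.65 ± 0.184 on A, and D was higher in 7 of 7 groups. DAP5 alone had 4.02 ± 0.340 loci per Mb on D and 3.06 ± 0.383 on A, also higher in 7 of 7. The excess of D over A was 0.981 ± 0.245 loci per Mb for DAP15 alone and 0.956 ± 0.368 loci per Mb for DAP5 alone, a gap smaller than either SD. Both sets were also denser on D than on B in 6 of 6 groups. The subgenomes differed in where loci of DAP15 alone lay: 53.1 ± 5.83% of them were at the ends on B chromosomes and 60.2 ± 2.70% on A, and B was lower in 6 of 6 groups, by -6.82 ± 4.50 points. For DAP5 alone the same difference was -2.82 ± 3.03 points, again lower on B in 6 of 6 groups. The B chromosomes included 1B, with few loci at its start and the lowest end share of DAP15 alone (45.5%). Chromosome lengths were taken from the largest end coordinate, which enters both densities and end shares.

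Loci of DAP15 alone were more scattered than loci of DAP5 alone. The median distance from a locus of DAP15 alone to the next of its own set was 25514 bp (quartiles 3794 and 156769 bp), against 12321 bp for DAP5 alone (1986 and 94540 bp). The DAP15 median was the larger on 20 of 20 chromosomes, and the larger number of DAP5-alone loci enters this distance. The difference was seen at the chromosome ends, with 19280 bp for DAP15 alone and 9560 bp for DAP5 alone, and outside them, with 47494 bp for DAP15 alone and 24855 bp for DAP5 alone. Distances to the nearest kept locus were close to each other, with medians of 12540 bp for DAP15 alone and 13686 bp for DAP5 alone, and DAP15 alone had the larger median on 5 of 20 chromosomes. With a minimum width of 500 bp, the order was the other way round, at 36084 bp for DAP15 alone and 32775 bp for DAP5 alone. Within 1 kb of a kept locus lay 15.0% of DAP15 alone and 14.4% of DAP5 alone. Over 100 kb from one lay 25.9% of DAP15 alone and 22.3% of DAP5 alone.

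Neighbouring loci tended to fall into the same set. The next locus along the chromosome after one of DAP15 alone was again DAP15 alone in 33.8% of cases, against 27.8% of all loci. After one of DAP5 alone it was DAP5 alone in 39.5%, against 30.9% of all loci. After a kept locus, the next was kept in 43.6%, against 41.3% of all loci, a smaller margin. Runs of at least 5 consecutive loci held 2364 loci (5.98%) of DAP15 alone, 5147 loci (11.7%) of DAP5 alone and 7355 kept loci (12.5%). The frequency of a set enters these shares. Loci with no other locus within 100 kb were the places where DAP15 alone was most frequent, at 35.2% of 9921 loci against 26.2% for DAP5 alone. Among loci with a neighbour at 300 to 1000 bp, the shares were 25.1% for DAP15 alone and 32.5% for DAP5 alone. The share of DAP5 alone did not fall steadily with distance. It was 30.2% below 300 bp and highest at 10000 to 30000 bp (33.5%, against 28.6% for DAP15 alone). At 3000 to 10000 bp, DAP15 alone held 29.0% and DAP5 alone 28.8%.

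**Figure D4:**
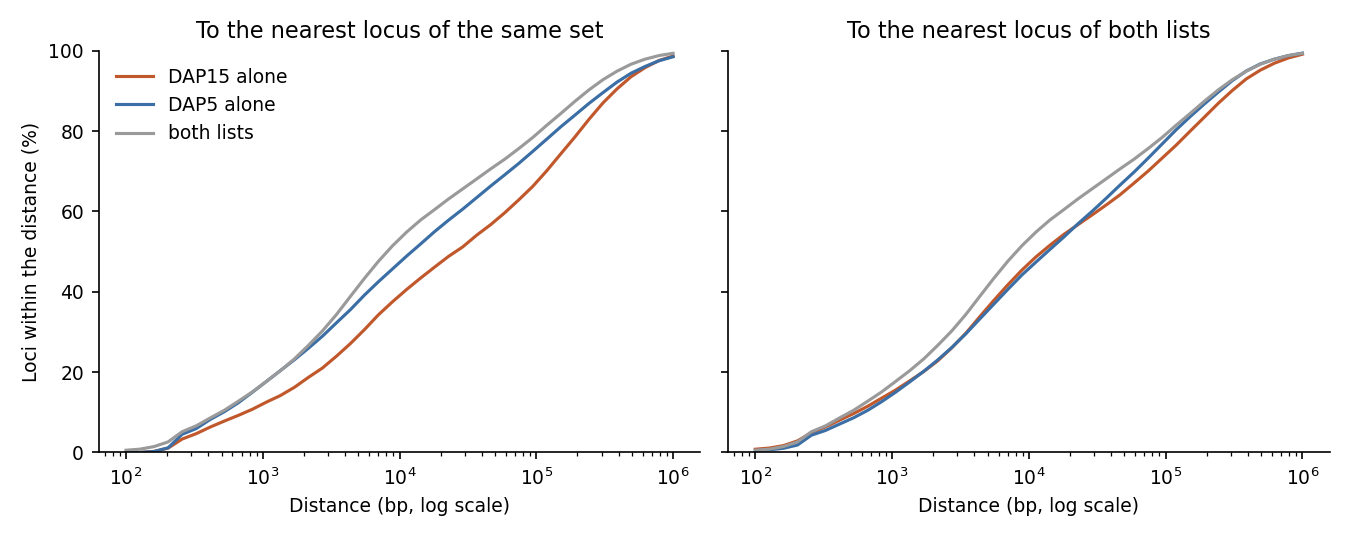
Cumulative share of loci (%) within a given edge-to-edge distance (bp, log scale) of the nearest locus of the same set (left) and of the nearest kept locus (right). In the left panel, DAP15 alone runs below DAP5 alone, with medians of 25514 and 12321 bp, and in the right panel both lie close together up to about the median.

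The longest runs showed blocks found in only 1 of the 2 lists compared, and they were not looked up in the DAP9 and DAP20 lists. For DAP15 alone, 14 consecutive loci with a mean width of 745 bp lay on 5B (207590545 to 208088342), a span of 498 kb. Runs of 12 loci on 2D (533319727 to 534292738) and of 11 loci on 7B (491122273 to 493526814) came next. For DAP5 alone, 16 consecutive loci lay on 2A (764213382 to 765604306), over 1391 kb within the last 5% of the coordinates. A run of 15 loci of DAP5 alone on 7D (33990251 to 34086254) was packed into 96.0 kb with a mean width of 646 bp. A further run of 14 loci of DAP5 alone lay on 5B (703264973 to 704095228), also within the last 5% of its chromosome. The most isolated loci of both sets were on 1B. That of DAP15 alone (117710682 to 117711331, 650 bp) was 14361058 bp from any other locus, and that of DAP5 alone (63174221 to 63174570, 350 bp) was 17538535 bp away. Chromosome 1B had the fewest loci of each set per Mb, and only 7 loci in its first 5%. These distances thus lay where loci of both lists were few, and the reason was not tested.

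Kept loci were somewhat narrower at DAP15 than at DAP5. Of 58662 kept loci, 53710 (91.6%) held exactly 1 ACR of each list and could be compared in width. At these one-to-one loci the ACR was 745 ± 495 bp wide at DAP15 and 810 ± 549 bp at DAP5 (mean ± SD), and the log2 ratio of DAP15 over DAP5 was -0.10 ± 0.76 with a median of 0.0. The mean ratio was negative on 20 of 20 chromosomes, between -0.14 (7D) and -0.04 (2D). With a reciprocal overlap of 50%, which by its construction leaves out pairs more than 2-fold apart in width, it was also -0.04 over all loci. A change of at least 1.5-fold was counted as narrower in 11254 loci (21.0%) and as wider in 7851 loci (14.6%), with more narrower than wider loci on 20 of 20 chromosomes. Widths were identical at 10937 loci (20.4%). A step of 150 bp down was found at 12.3% and a step of 150 bp up at 10.7%. Losses of 1000 bp or more occurred at 1924 loci (3.58%) and gains of that size at 730 loci (1.36%).

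Width change also varied along the chromosome. In the last 5% of the coordinates, 25.6% of 7177 one-to-one loci were narrower by 1.5-fold and 11.5% wider, with 764 bp at DAP15 and 897 bp at DAP5 on average. Over all one-to-one loci, 21.0% were narrower and 14.6% wider. In the bin from 65 to 70% of the length, the shares were 16.1% narrower and 15.3% wider, with 706 bp at DAP15 and 731 bp at DAP5. The 3 bins with the highest share of DAP5 alone, the first and the last 2, were also those with the highest share of narrower loci. Narrowing was not confined to the ends. From 45 to 50% of the length, 22.0% were narrower and 13.2% wider, while DAP5 alone held 28.3% of the loci there, against 30.9% over all loci. Among one-to-one loci with a mean of both widths of 1100 to 1500 bp, the averages were 1169 bp at DAP15 and 1330 bp at DAP5, and 25.8% were narrower against 13.7% wider.

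The ACRs of a kept locus seldom had the same borders. Both ends were identical at 266 loci (0.495%), although the widths were identical at 10937 of the same loci (20.4%). Per the study's methods, peaks were split into bins of 150 bp before filtering and merging. Whether the bins of both lists started at the same positions was not given in the sources used here. A shifted border was therefore not shown to be a change in accessibility. The DAP15 ACR lay inside the DAP5 ACR at 14831 loci (27.6%), the DAP5 ACR lay inside the DAP15 ACR at 10520 (19.6%), and at 28093 (52.3%) each reached beyond the other on one side. The shared part covered a median of 65.1% of the merged locus (quartiles 46.4 and 78.6%). The midpoints were a median of 96.0 bp apart, which is less than the width of a bin. The part of bin placement in these border values was not tested. Of all kept loci, 3210 (5.47%) had more ACRs at DAP15 than at DAP5 and 1500 (2.56%) had fewer. The most common case was a pair of DAP15 ACRs with 1 DAP5 ACR (2841 loci), against 1420 loci with 1 DAP15 ACR and a pair of DAP5 ACRs.

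**Figure D5:**
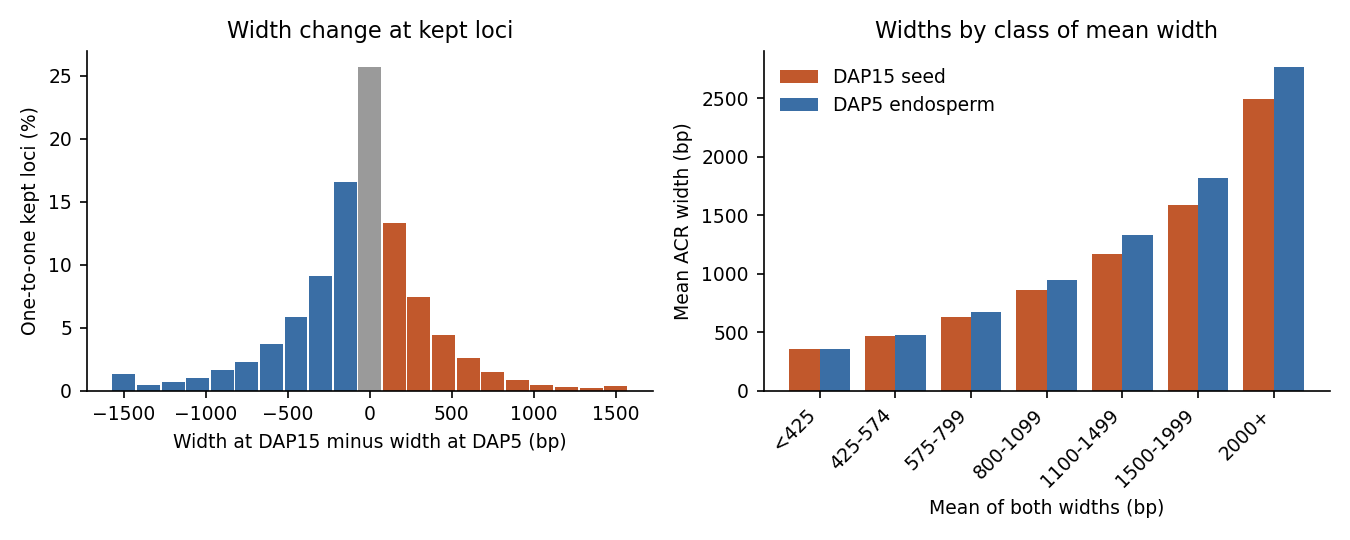
Left, width at DAP15 minus width at DAP5 (bp, in classes of 150 bp, the outermost bars holding all larger changes) as a share of 53710 one-to-one kept loci (%); the side of narrower loci is the heavier. Right, mean ACR width (bp) at DAP15 and at DAP5 by class of the mean of both widths; in the class of 1100 to 1500 bp the means are 1169 and 1330 bp.

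Single loci changed by several kb. On 1D (585787 to 595136), the DAP15 ACR was 9350 bp wide and the DAP5 ACR 500 bp, a gain of 8850 bp. On 6A (596286904 to 596296513), the widths were 9607 bp at DAP15 and 1100 bp at DAP5, and on 3B (701414864 to 701419929), 5000 bp at DAP15 and 800 bp at DAP5. The largest losses were on 5A (575703758 to 575709787), with 950 bp at DAP15 and 5886 bp at DAP5, on 5B (53792788 to 53798087), with 500 bp at DAP15 and 5300 bp at DAP5, and on 7D (547455885 to 547460551), with 350 bp at DAP15 and 4667 bp at DAP5. The gain on 1D lay in the first 5% and that on 6A in the last 5% of the coordinates. The most fragmented kept locus at DAP15 was on 1A (592306976 to 592315115), where 6 DAP15 ACRs lay in the span of 1 DAP5 ACR of 8140 bp. The reverse was found on 1B (652451392 to 652461052), where 1 DAP15 ACR of 9650 bp overlapped 5 DAP5 ACRs in a locus of 9661 bp.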

How the data were processed

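ATAC-seq ACRs of AK58 grain were taken as deposited by the authors, as coordinates in bp without score or read number. Per the study's methods, the authors aligned reads with Bowtie2, removed duplicates, called peaks with MACS2 around the Tn5 site, split them into overlapping bins, kept bins above a density of Tn5 insertions, merged these with bedtools and removed peaks that met a blacklist or resembled organelle DNA. The methods name fastp for trimming and the submitters' processing notes Trimmomatic 0.36. The density minimum, the build and the pooling of replicates were not given in the sources used here. Different density minima or depths between stages would change the number and width of ACRs.

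The DAP15 and DAP5 lists were merged by an overlap of at least 1 bp without chromosome 4B. The largest end in the 2 lists stood in for chromosome length. Distances were measured from edge to edge. No test was run, since there was 1 list per stage; shares have Wilson 95% intervals, and the number of chromosomes in the same direction is given, chromosomes not being replicates. Regions were named by rule: the widest locus of a single list and the largest width gain and loss on each subgenome, the kept loci with the most ACRs of a list, the longest runs (3 per set), the most isolated loci, the 3 most tilted windows each way, and the chromosomes with extreme values. Members, rules and alternatives were chosen with earlier results of these data known. Tested on simulated data, the merging recovered 12496 of 12496 loci. Tables were handled with pandas 2.3.3 under Python 3.11.15 and numpy 2.4.6, and figures drawn with matplotlib 3.10.9. Genes, promoters, motifs and sequences were not analysed here, since no genome of the lists' build was used. The DAP9 and DAP20 lists entered only the number of ACRs in the series and an alternative chromosome length. No column of another series was found.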

Additional observations from a re-analysis of the deposited data

How the results depend on the processing

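No paired analysis was possible because the lists do not separate the replicates of a stage, which also kept any replicate from being left out. Values without a binomial interval were called moved when they changed by more than 1 SD over chromosomes or homoeologous groups. In the following, shares are given in the order DAP15 alone, DAP5 alone and both lists. They were 26.0, 29.0 and 44.97% with merging within 500 bp, 36.3, 37.8 and 25.9% with a reciprocal overlap of 50%, 32.5, 34.1 and 33.4% when each ACR was set to 350 bp about its midpoint, 29.7, 29.6 and 40.8% with a minimum width of 350 bp, and 26.4, 34.8 and 38.8% with a minimum of 500 bp. With chromosome 4B, DAP5 alone was 31.4% and the kept share 40.8%. By their construction, a stricter overlap can only lower the kept share and a wider merging joins loci of different lists. Elsewhere the cause was not tested. Kept loci were thus not the largest set with reciprocal overlap or with midpoints.

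Mean widths of DAP15 alone and DAP5 alone were 518 and 621 bp with merging within 500 bp and 574.9 and 711 bp with reciprocal overlap. The mean for DAP5 alone was 591 bp with a minimum of 350 bp. The medians were 350 and 500 bp. DAP15 alone was the narrower in each of these. The median distances to a kept locus for DAP15 alone and DAP5 alone were 19390 and 18954 bp with merging within 500 bp, 19233 and 23504 bp with reciprocal overlap, and 36084 and 32775 bp with a minimum of 500 bp, so that their order was not resolved.

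The difference between the sets at chromosome ends kept its sign in all 8 recalculations, between -9.28 points (ends of 10%) and -4.11 points (ends of 30%). The chromosome length from 4 lists, counted among these, left the pooled difference unchanged at -6.51 points. The difference in the last 5% of the chromosome, recalculated only after the data had been seen, stayed between -20.7 and -12.0 points, but in the middle it changed sign with a minimum of 500 bp (-3.53 points). The subgenome differences in DAP15 alone changed sign for D minus A with a minimum of 500 bp (-0.0931 points) and for D minus B with reciprocal overlap (0.0929 points).

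One-to-one loci narrower and wider at DAP15 made up 37.8 and 28.0% from 1.2-fold and 10.8 and 6.23% from 2-fold. They made up 21.5 and 14.2% with all kept loci and summed widths, and 21.7 and 14.0% with a minimum width of 350 bp. With widths on 150 bp steps, 14.2% were wider. Narrower loci exceeded wider ones in each case. The mean log2 ratio of widths, recalculated after the data had been seen, was -0.04 with reciprocal overlap and stayed negative in its other 5 recalculations.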

Other observations

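Chromosome 4B, left out above, held 3450 ACRs at DAP15 and 4308 at DAP5, which formed 5910 loci. Of these, 1660 (28.1%) were DAP15 alone, 2558 (43.3%) were DAP5 alone and 1692 (28.6%) were kept. The kept share lay below the lowest of the other chromosomes, 39.0% on 7B. Of 1555 one-to-one kept loci on 4B, 27.5% were narrower at DAP15 by 1.5-fold and 20.6% wider.

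Width change at kept loci also differed with the surroundings, a pattern looked at only after the data had been seen. One-to-one loci with their nearest neighbour at 300 to 1000 bp were 781 bp wide at DAP15 and 889 bp at DAP5, and 24.0% were narrower by 1.5-fold against 13.2% wider. Those with no other locus within 100 kb were 691 bp wide at DAP15 and 699 bp at DAP5, and 14.9% were narrower against 16.0% wider. Locus density was also higher near chromosome ends (33.2 loci per Mb in the outer 2 Mb, against 6.32 beyond 200 Mb), and the part of position in this contrast was not tested.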
